A study of Mus musculus with 8 samples.

Results

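Autosomal positions from chromatin immunoprecipitation sequencing (ChIP-seq) were compared between the histone mark H3K27me3 and RNA polymerase II (Pol II), both in mouse bone marrow-derived macrophages at 4 h of stimulation with lipopolysaccharide (LPS) and interferon gamma. These are 2 of the 8 libraries of the series, chosen by antibody and time, and each holds 1 sample. The cells are phagocytes grown from the marrow of female Fvb mice aged 6 to 8 weeks. The untreated libraries at 0 h, the Pol II library at 2 h and the Jmjd3 library at 2 h, used below for comparison, came from the same kind of culture. The number of animals behind each library is not given in the sources used here. Each antibody and time has 1 library, so differences could not be checked on replicates and are given with no p-value. Brackets hold exact 95% binomial (Clopper-Pearson) intervals, which cover counting error only, since neighbouring positions are not independent.

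H3K27me3 is the mark laid down by the Polycomb complex PRC2. It covers silent genes, often over broad domains, and can share promoters with H3K4me3, a mark of promoters that are active or poised. Pol II is the enzyme that transcribes genes, and its ChIP signal collects at start sites and along transcribed genes. Jmjd3 is a demethylase of H3K27 that macrophages switch on when they meet LPS.

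On the 19 autosomes the H3K27me3 list held 83879 of its 89093 positions and the Pol II list 56478 of its 57513. The authors' overlap count of a position, called its height here, ran from 10 to 401 with a median of 13 for H3K27me3, and from 11 to 401 with a median of 19 for Pol II. The labels put every library above 10000000 uniquely mapped tags and leave its exact depth unknown. Heights are therefore ranked only within their own list. Coordinates are on mm8, and genes are not named because no annotation of that build was used here. Windows reached 250 bp to either side of a position, and 2 positions overlapped when under 500 bp apart.

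H3K27me3 and Pol II seldom stood at the same place. Of the 83879 H3K27me3 positions, 1548 (1.85%, 1.76 to 1.94) overlapped a Pol II position, and 1525 of the 56478 Pol II positions (2.7%, 2.57 to 2.84) overlapped H3K27me3. Uniform placement of the H3K27me3 positions along their own chromosomes gives an expected 2.42%, computed from the length that the Pol II windows cover, so the observed overlap was 0.762 times that level. Placement confined to 100 kb around each position, which keeps the local density of Pol II, gives 3.16% and a ratio of 0.585. Neither expectation was limited to sequence where tags map uniquely. The ratio passed above 1 when only positions above the median height of each list were used (1.295), and when positions had to lie within 250 bp (1.04).

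The distance between the 2 lists showed 3 zones. The first was coincidence at very short range: 516 H3K27me3 positions lay under 50 bp from a Pol II position, against 212 for uniform placement (2.44 times), and 231 lay at 50 to 100 bp, against 214. The second was a deficit. At 250 to 500 bp 434 positions were counted against 965 expected (0.450 times), at 0.5 to 1 kb 638 against 1254 (0.509 times), and at 3 to 5 kb 1751 against 2221 (0.788 times). The third was a broad excess in the neighbourhood. Counts reached the uniform level at 5 to 7.5 kb (1.02 times), rose to 1.96 times at 30 to 50 kb and 2.07 times at 50 to 75 kb, where 11364 positions stood against 5492 expected, and were back at 1.05 times by 150 to 200 kb. Between 300 and 500 kb the count fell short again, with 3083 against 9065 (0.340 times).

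The median distance from an H3K27me3 position to Pol II was 55.0 kb, with 5% of positions under 3.16 kb and 5% over 309 kb. Uniform placement gives a median of 122 kb, so H3K27me3 lay nearer to Pol II than that, at 0.453 times the distance. Against placement within 100 kb, whose median is 48.9 kb, it lay farther. From the side of Pol II the median distance to H3K27me3 was 53.7 kb, with 89.4 kb for uniform placement.

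The zones were shared by the chromosomes to different degrees. Counts under 50 bp were above the uniform level on 19 of 19 autosomes, from 1.51 times on chromosome 6 to 6.07 times on chromosome 13. Counts at 250 bp to 1 kb were below it on 19 of 19, from 0.324 times on chromosome 11 to 0.993 times on chromosome 10. Counts at 1 to 5 kb were below it on 17, the exceptions being chromosomes 3 and 10. Counts at 10 to 50 kb were above it on 19 of 19, from 1.40 to 2.08 times, and those at 50 to 100 kb likewise, from 1.65 to 2.63 times.

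The deficit was deepest around Pol II outside H3K4me3 clusters. Pol II was divided by whether its window touched an H3K4me3 cluster of 4 h, which 20222 positions (35.8%) did. Around the 36256 positions outside such clusters, 109 H3K27me3 positions lay at 250 to 500 bp, against 606 for uniform placement (0.180 times), and 181 lay at 0.5 to 1 kb, against 743 (0.244 times). Around Pol II inside clusters the same bands held 325 against 362 (0.897 times) and 476 against 556 (0.857 times). Under 50 bp both kinds of Pol II had more H3K27me3 than uniform placement, 3.16 times inside clusters and 2.03 times outside. At 75 to 100 kb the ratios were 2.14 inside and 2.09 outside.

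**Figure D1:**
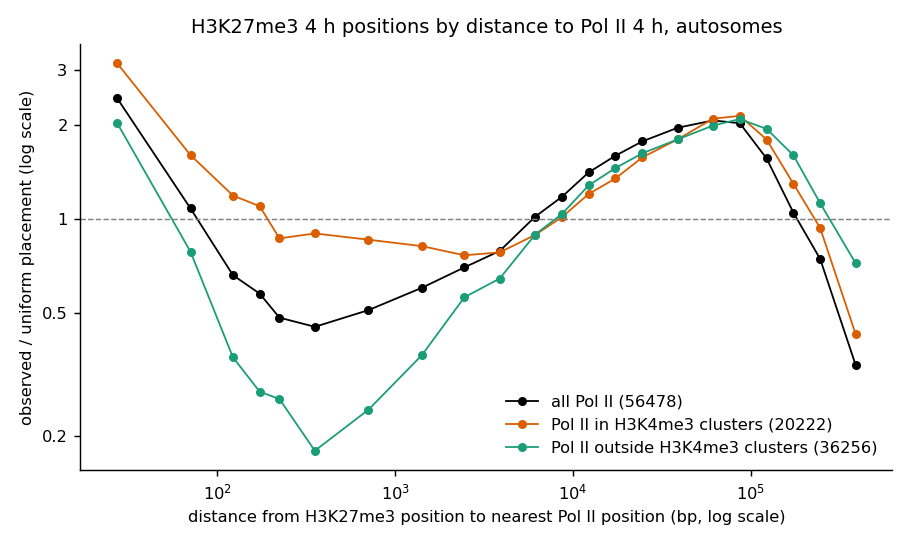
Number of H3K27me3 positions at 4 h in each band of distance to the nearest Pol II position at 4 h (horizontal axis, bp, log scale), divided by the number for uniform placement on the chromosome (vertical axis, log scale, dashed line at 1), for all Pol II and for Pol II inside and outside H3K4me3 clusters. The black curve starts at 2.44 under 50 bp, falls to 0.450 at 250 to 500 bp and climbs to 2.07 at 50 to 75 kb, and the curve for Pol II outside clusters falls to 0.180.

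Fixed bins gave opposite directions at the 2 scales. In 10 kb bins, 30077 of 240171 held H3K27me3 and 22596 held Pol II. Both were present in 2564, against 2976 expected if the occupied bins of each list were placed independently on each chromosome, a ratio of 0.861. In 100 kb bins, 9086 of 24032 held H3K27me3 and 8061 held Pol II, and 4415 held both, against 3108 expected, a ratio of 1.42. At 10 kb the ratio was below 1 on 11 autosomes and above 1 on 8, from 0.598 on chromosome 11 to 1.21 on chromosome 18. At 100 kb it was above 1 on 19 of 19, from 1.18 on chromosome 19 to 1.68 on chromosome 3. The 10 kb ratio was 1.04 with only positions above the median height of each list. The 100 kb ratio was 0.853 when bins with no listed position of any kind were left out. That removes only bins that lack both and so lowers the ratio by construction.

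**Figure D2:**
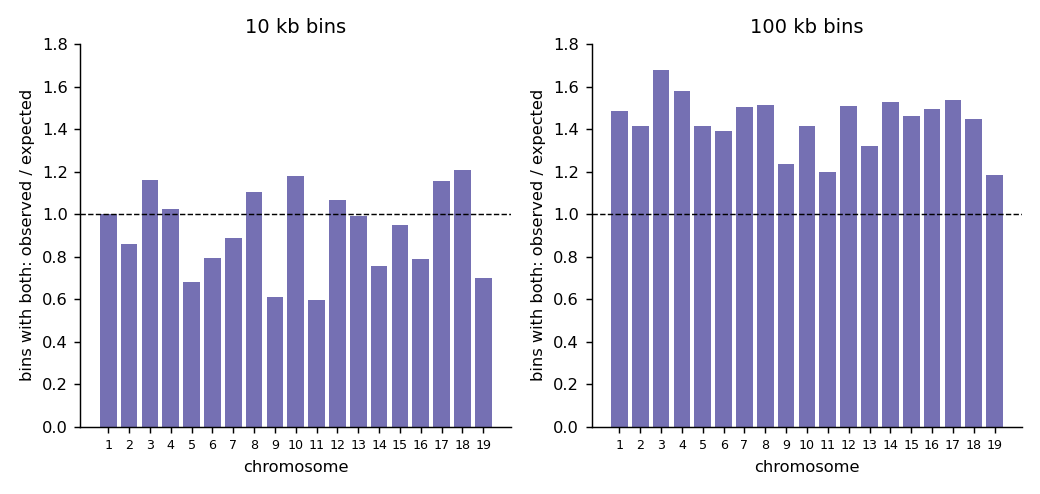
Bins holding both H3K27me3 and Pol II at 4 h, divided by the number expected for independent placement (vertical axis, dashed line at 1), for each autosome (horizontal axis), in 10 kb bins on the left and 100 kb bins on the right. At 10 kb the bars lie on both sides of 1, from 0.598 to 1.21, and at 100 kb all 19 are above it, from 1.18 to 1.68.

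The 2 scales can be read together. Within the 4415 bins of 100 kb that held both, the 10 kb bins with both numbered 2564, against 3401 if the occupied 10 kb bins were placed independently inside each 100 kb bin (0.754 times). In 2421 of the 4415 (54.8%, 53.4 to 56.3) no 10 kb bin held both, where the same independent placement gives 2078 (47.1%). In 1720 of the 2421 every H3K27me3 position was 10 kb or more from Pol II, and in the others the nearest pair stood closer, on either side of a bin edge. H3K27me3 stood in 29.2% (28.5 to 30.0) of the 15971 bins without Pol II. It stood in 56.0% (54.4 to 57.6) of bins with 1 to 2 Pol II positions, 57.3% (54.8 to 59.8) with 3 to 5, and 43.5% (39.9 to 47.2) of the 724 bins with over 20. Where it was present, the mean number of H3K27me3 positions was 9.22 in bins with 1 to 2 Pol II positions and 7.50 in bins with over 20.

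The stretches between neighbouring Pol II positions showed where the mark lay. Gaps under 5 kb held 14.0 H3K27me3 positions per Mb. Gaps of 100 to 200 kb held 79.9 per Mb and gaps of 200 to 500 kb held 77.9. These 2 classes held 16703 and 28054 of the positions. Gaps of 1 Mb or more, which make up 1030 Mb, held 8.48 per Mb. Inside the 2627 gaps of 100 to 500 kb, density depended on the distance to the nearer Pol II position: 82.6 per Mb under 0.5 kb, 44.2 per Mb at 2 to 5 kb, 54.9 at 5 to 10 kb, 68.0 at 10 to 20 kb and 84.5 beyond 50 kb. The dip at 1 to 5 kb was therefore also present within gaps of 1 size class, relative to the rest of those gaps. Density in that dip (44.3 per Mb at 1 to 2 kb) stayed above the autosomal 34.9 per Mb. In the 6549 gaps of 20 to 100 kb it was 54.2 per Mb under 0.5 kb and 29.6 at 0.5 to 1 kb. There it was 29.2 at 1 to 2 kb, 31.0 at 2 to 5 kb and 64.9 at 20 to 50 kb.

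Taller H3K27me3 positions overlapped Pol II more often. At the lowest height of 10, 165 of 16453 (1.00%, 0.856 to 1.17) overlapped, 0.421 times the uniform level. At heights 18 to 31 the share was 2.70% (2.44 to 2.99), and at 32 to 93 it was 5.38% (4.88 to 5.91), or 2.22 times the uniform level. At 94 to 401 it was 52 of 841 (6.18%, 4.65 to 8.03), and the 5 tallest of these 52 lay in 1 stretch of chromosome 17 described below. The shares by height were not computed without the stretches where both lists were dense. The band from 250 bp to 5 kb filled in as well, from 0.470 times the uniform level at height 10 to 1.15 times at 32 to 93, and was 0.980 times at 94 to 401 (73 positions). Pol II height showed no such order. The share of Pol II positions at H3K27me3 was 2.00% (1.74 to 2.28) at heights 11 to 12, 3.39% (3.11 to 3.69) at 19 to 37 and 2.04% (1.67 to 2.46) at 85 to 209. In the tallest class, 210 to 401, it was 26 of 572 (4.55%, 2.99 to 6.59), and at least 13 of these 26 lay at a single locus on chromosome 11 described below. Among pairs under 50 bp apart, the 2 heights had a Spearman correlation of 0.23 over 516 pairs, which share their 2 libraries. At 50 to 250 bp it was 0.01 over 598.

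**Figure D3:**
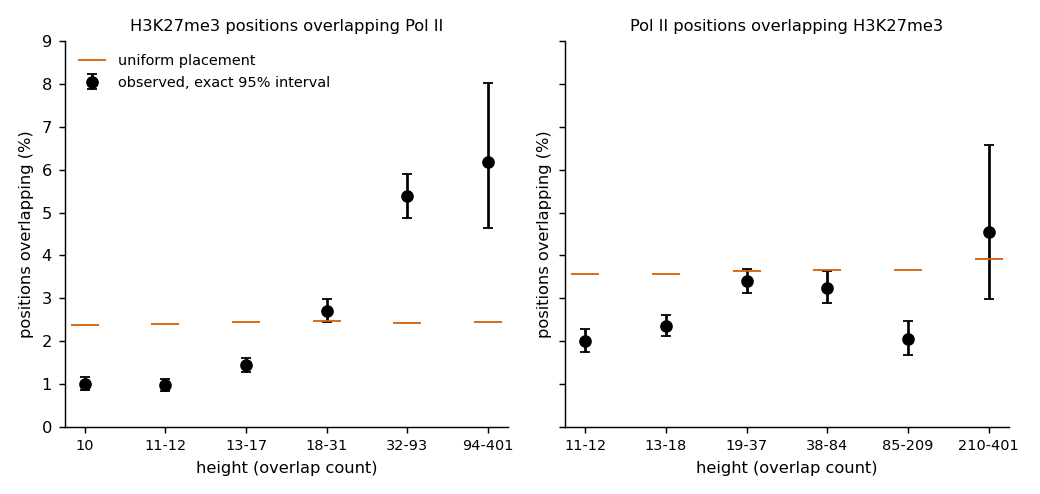
Share of positions that overlap the other list (vertical axis, percent, points with exact 95% intervals) by height class (horizontal axis, overlap count), for H3K27me3 on the left and Pol II on the right; orange dashes give uniform placement. H3K27me3 climbs from 1.00% at height 10 to 6.18% at 94 to 401, whereas Pol II moves between 2.00% and 4.55% with no steady order.

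The other 6 lists showed what the shared positions carried beyond the pair. H3K4me3 of 4 h was at 936 of the 1548 overlapping H3K27me3 positions (60.5%, 58.0 to 62.9), against 11.6% of all H3K27me3 positions. Jmjd3 of 2 h was at 294 (18.99%, 17.1 to 21.0), against 0.529%. Without the first 100 kb of chromosome 11, described below, Jmjd3 was at 16.2% (14.4 to 18.2) of the remaining 1493. H3K27me3 of 0 h was at 1192 (77.0%, 74.8 to 79.1), against 49.4%, while 50.6% of all H3K27me3 positions had no position of 0 h. For Pol II of 0 h the shared positions, chosen for their Pol II of 4 h, are read against the 54.7% of all Pol II positions of 4 h that had it, since only 1.74% of all H3K27me3 positions did. The Pol II list of 0 h stops early on chromosomes 13 to 18, and on the other 13 autosomes 768 of 1199 shared positions (64.1%, 61.3 to 66.8) had it, against 56.1% of Pol II positions there. On these 13, both lists were present at 0 h at 624 (52.0%, 49.2 to 54.9) and neither at 126 (10.5%, 8.83 to 12.4). Both were present at 1.37% of all 65006 H3K27me3 positions of 4 h there, and neither at 49.97%. For all 44317 Pol II positions of 4 h there, these shares were 1.95% and 43.1%. The shared positions were chosen for both lists of 4 h, so the 52.0% and 10.5% cannot be read alone. All 6 lists were present at 175 of the 1548 shared positions (11.3%), against 0.221% of all H3K27me3 positions. None of the 6 was present at 49 (3.17%, 2.35 to 4.16), against 47.4%. The 6 include Pol II of 0 and 2 h, and the shared positions were chosen for Pol II of 4 h. Little can therefore be read from these contrasts. At matched H3K27me3 height the shared positions still had the mark at 0 h more often in the lower classes, for instance 52.2% (45.2 to 59.1) against 29.2% (28.6 to 29.8) at heights 11 to 12. In the tallest class, 94 to 401, the shares were 94.2% (84.1 to 98.8) and 97.3% (96.0 to 98.3). H3K4me3 of 4 h at matched height was also more frequent at shared positions in the lower classes. At 32 to 93 it was at 78.9% (74.6 to 82.8) of them, against 52.8% (51.6 to 54.0) of the others. At 94 to 401 the order was reversed, with 46.2% (32.2 to 60.5) of 52 shared positions and 84.4% (81.7 to 86.9) of 789 others.

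From the side of Pol II, Jmjd3 was at 296 of the 1525 shared positions (19.4%, 17.5 to 21.5), against 6.08% of all Pol II positions. H3K27me3 of 0 h was at 1150 (75.4%, 73.2 to 77.6). It was at 2.79% of all Pol II positions, but the shared ones were chosen for H3K27me3 of 4 h, so little can be read from that contrast. H3K4me3 of 0 h was at 885 (58.0%, 55.5 to 60.5), against 36.1%, where it was at 11.2% of all H3K27me3 positions. Pol II of 2 h was at 1197 (78.5%, 76.3 to 80.5), against 67.7%. All 6 lists were at 179 (11.7%, 10.2 to 13.5), against 0.423%, and none of the 6 at 48 (3.15%, 2.33 to 4.15), against 16.3%. The 6 include H3K27me3 of 0 h, so the same limit holds for these contrasts.

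The lists at the shared positions varied with the distance of the pair. H3K4me3 of 4 h was at 46.9% (42.5 to 51.3) of the 516 pairs under 50 bp, 61.5% (57.5 to 65.5) at 50 to 250 bp and 75.1% (70.8 to 79.1) at 250 to 500 bp. Jmjd3 went the other way, from 23.3% (19.7 to 27.1) to 18.2% (15.2 to 21.6) and 14.98% (11.8 to 18.7), and so did positions with all 6 lists, from 15.9% (12.8 to 19.3) to 6.91% (4.71 to 9.72). Without the first 100 kb of chromosome 11, Jmjd3 was at 19.1% (15.7 to 22.9) under 50 bp and 14.2% (11.03 to 17.8) at 250 to 500 bp, with intervals that overlap. A share of shared positions had no second H3K27me3 position within 5 kb: 32.8% (28.7 to 37.0) under 50 bp, 26.6% (23.1 to 30.3) at 50 to 250 bp and 26.0% (22.0 to 30.4) at 250 to 500 bp, with intervals that overlap, against 12.6% (12.4 to 12.9) of all 83879. At 0.5 to 5 kb from Pol II, H3K4me3 was at 36.3% (34.9 to 37.8) and Jmjd3 at 1.47% (1.13 to 1.88), and beyond 50 kb these were 8.11% and 0.0944%.

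**Figure D4:**
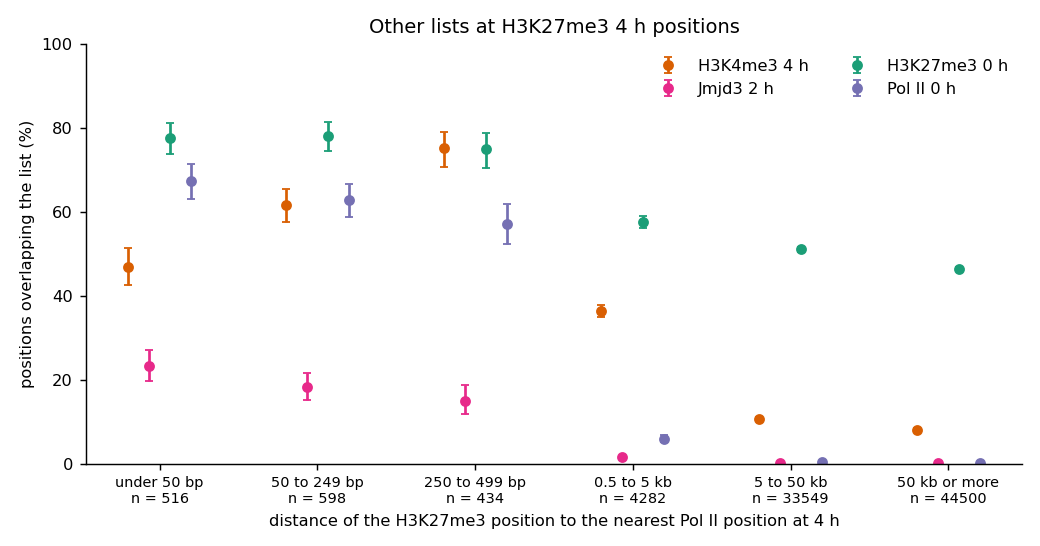
Share of H3K27me3 positions at 4 h that overlap H3K4me3 at 4 h, Jmjd3 at 2 h, H3K27me3 at 0 h or Pol II at 0 h (vertical axis, percent, with exact 95% intervals), by distance to the nearest Pol II position at 4 h (horizontal axis, with the number of positions). H3K4me3 climbs from 46.9% to 75.1% over the first 3 classes and drops to 8.11% beyond 50 kb, and Jmjd3 falls from 23.3% to 0.0944%. Pol II of 0 h is not listed to the end of chromosomes 13 to 18, which lowers its shares.

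H3K4me3 clusters that carried H3K27me3 held Pol II less often than those without it. Of 5020 H3K4me3 clusters of 4 h that held H3K27me3, the clusters usually called bivalent, 1206 (24.0%, 22.8 to 25.2) held Pol II. Of the 14040 without H3K27me3, 10938 did (77.9%, 77.2 to 78.6). The gap was present in each class of H3K4me3 height. At heights 11 to 22, 7.47% (6.15 to 8.97) of clusters with H3K27me3 and 38.6% (36.9 to 40.3) of those without held Pol II. At 23 to 98 these were 13.8% (12.5 to 15.3) and 62.6% (60.7 to 64.5), at 99 to 193 58.4% (55.3 to 61.5) and 95.9% (95.3 to 96.6), and at 194 to 365 93.9% (89.4 to 96.9) and 99.2% (98.96 to 99.5). By comparison, 35.8% of Pol II positions lay at H3K4me3 clusters, 11.2 times the uniform level, against 0.748 times for Pol II at H3K27me3. Counting the other way, H3K27me3 was at 9.93% (9.40 to 10.5) of the 12144 clusters with Pol II and 55.1% (54.0 to 56.3) of the 6916 without.

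Long H3K27me3 domains were poor in Pol II and their surroundings were rich in it. H3K27me3 positions under 5 kb apart were joined, a distance chosen after the data had been seen, which gave 21509 domains, single positions included. The 1247 domains of 20 kb or more covered 51.9 Mb and held 431 Pol II positions, 8.31 per Mb, against 23.5 per Mb over all autosomes. No Pol II stood in 1103 of them (88.5%, 86.5 to 90.2). Over all autosomes Pol II stood in only 9.41% of 10 kb bins and 33.5% of 100 kb bins. The share without Pol II among other stretches of the same lengths was not computed, so the 88.5% has no background beside it. Pol II density climbed outwards, from 6.13 per Mb more than 10 kb inside the edge and 12.9 in the last 5 kb inside to 28.5 in the first 5 kb outside, 43.2 at 10 to 20 kb and 62.2 at 50 to 100 kb. Of the 431 Pol II positions inside, 87 (20.2%, 16.5 to 24.3) were at Jmjd3, against 6.08% of all Pol II positions, and 57 of these 87 lay in a single domain, from 3027548 to 3099889 on chromosome 11. Without that domain the share was 8.13% (5.55 to 11.4). H3K4me3 of 4 h was at 42.5% (37.7 to 47.3) of those inside with the domain and 32.8% (28.0 to 37.8) without it, against 35.8% of all Pol II positions. Pol II density inside was 7.13 per Mb without it.

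**Figure D5:**
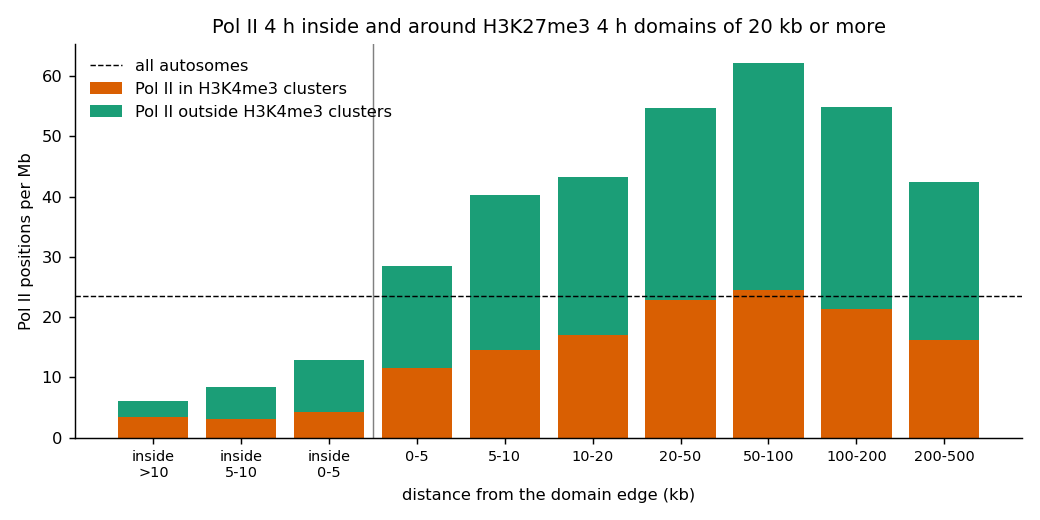
Pol II positions per Mb at 4 h (vertical axis) inside and outside H3K27me3 domains of 20 kb or more, by distance from the domain edge (horizontal axis, kb; inside to the left of the grey line), stacked by whether Pol II lay in an H3K4me3 cluster. Density climbs from 6.13 per Mb in the interior to 62.2 at 50 to 100 kb outside, past the autosomal level of 23.5 (dashed).

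The longest of these domains ran from 84330979 to 84622481 on chromosome 11 (292 kb) with 210 H3K27me3 positions and no Pol II, although Pol II stood 1.35 kb beyond its edge. The next was at 102726769 to 102977235 on chromosome 15 (250.5 kb, 201 positions), again with none inside and Pol II 3.85 kb away. The domain at 164754506 to 164964990 on chromosome 2 (210.5 kb, 162 positions) was the exception among the 5 longest. It held 13 Pol II positions at 4 h, 8 at 2 h and none at 0 h, within a stretch of 15.4 kb near its left end. Their heights ran from 13 to 141, 10 of the 13 overlapped H3K27me3 of 4 h, and the stretch held 10 H3K27me3 positions at 4 h and 11 at 0 h. Pol II and the mark were thus both listed there at 4 h. The overlap expected at the local density of the stretch was not computed.

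Such domains were few. On the 13 autosomes whose Pol II list of 0 h does not stop early, 987 domains reached 20 kb. Pol II was inside 103 at 0 h (10.4%, 8.60 to 12.5), 111 at 2 h and 109 at 4 h (11.04%, 9.16 to 13.2), and 54 held it at all 3 times. It was inside at 4 h only in 18 and at 2 and 4 h only in 26. Conversely, it was inside at 0 h only in 29 and at 0 and 2 h only in 9. Pol II was absent at 0 h and had at least 3 positions at 4 h in 6, a threshold set after the values were seen. The reverse was not counted at this threshold. The 6 were led by 154346400 to 154371936 on chromosome 1, a domain of 25.5 kb. It held 19 Pol II positions at 4 h, 10 at 2 h and 15 H3K27me3 positions at 4 h. There 10 of the 19 overlapped H3K27me3, and their heights ran from 11 to 30. The 19 spanned 22.9 kb, which held 13 H3K27me3 positions of 4 h. The overlap expected at that local density was not computed.

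The runs of closely spaced positions, joined when under 1 kb apart, seldom touched the other list. The 5 longest H3K27me3 runs, up to 7.96 kb with 11 positions (62322934 to 62330895 on chromosome 14), held no Pol II and were 1.88 to 167 kb from it. The 5 longest Pol II runs, up to 6.99 kb with 10 positions (166389349 to 166396338 on chromosome 2), held no H3K27me3 and were 8.63 to 249.9 kb from it. Over all runs of 5 or more positions the other list was within 250 bp of 10 of 289 H3K27me3 runs (3.46%, 1.67 to 6.27) and 7 of 284 Pol II runs (2.46%, 0.997 to 5.01). For lone positions, which cover less sequence, the shares were 1.43% (1.33 to 1.54) of 53778 and 2.29% (2.14 to 2.45) of 35193.

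Some of the shared positions were packed into a few places. The 5 tallest shared H3K27me3 positions all lay between 39451346 and 39456602 on chromosome 17, with heights of 360 to 401. Each had Pol II 10 to 95 bp away with heights of 139 to 196, Pol II at 0 and 2 h, and no H3K4me3 or Jmjd3. Of the 10 kb bins with both, the 5 with most of each were 4 neighbours at the start of chromosome 11 and 1 at the start of chromosome 9. From 3000001 to 3100000 on chromosome 11, 65 H3K27me3 and 70 Pol II positions were listed at 4 h, with 66 and 72 at 0 h and 72 Jmjd3 positions, and 55 of the 65 overlapped Pol II. In the same interval of chromosome 9, 28 of 29 overlapped Pol II, 24 of them under 50 bp. That interval had 30 H3K27me3 and 28 Pol II positions at 0 h and no Jmjd3 or H3K4me3. Overlaps expected at the local density of these stretches were not computed.

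The 170 bins of 10 kb with at least 3 positions of each list held 786 H3K27me3 positions (0.937%), but 182 of the 516 pairs under 50 bp (35.3%, 31.1 to 39.6) and 414 of the 1548 overlaps (26.7%, 24.6 to 29.0). Without these bins, whose removal lowers the overlap by construction, the overlap was 0.572 times the uniform level. Pairs under 50 bp were then 1.62 times it, and the band of 250 bp to 1 kb was 0.413 times. Without the first 1 Mb of each chromosome the pairs under 50 bp were 2.13 times the uniform level.

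The tallest Pol II positions at H3K27me3 led to a locus that filled with Pol II after stimulation. The first of them, at 34871198 on chromosome 17 (height 366), lay 225 bp from an H3K27me3 position of height 14 and overlapped all 6 other lists. The second was at 74328953 on chromosome 1 (288) and the fourth at 19784694 on chromosome 8 (277), and both also overlapped all 6. The third and the fifth, at 78738048 and 78765670 on chromosome 11 (282 and 276), had no Pol II at 0 h. On the 13 complete autosomes, 45 Pol II positions of height 210 or more had none at 0 h, at 18 loci over 100 kb apart. H3K27me3 of 4 h overlapped 13 of the 45, all of them at 1 locus, from 78738048 to 78771452 on chromosome 11. This locus was singled out after its values were seen.

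From 78730001 to 78780000 on chromosome 11, Pol II went from 4 positions at 0 h (heights 14 to 25) to 32 at 2 h and 33 at 4 h (median heights 243 and 237). Jmjd3 was listed 10 times at 2 h, and the tallest H3K4me3 cluster had a height of 24 at 0 h and 176 at 4 h. H3K27me3 was listed 11 times at 0 h, with heights of 11 to 55, and 25 times at 4 h, with heights of 10 to 28. Of the 25, 22 overlapped a Pol II position of 4 h and 19 lay under 150 bp from one. The numbers expected at that local density of Pol II were not computed. Low H3K27me3 positions and tall Pol II positions of 4 h thus stood side by side there. What part the strong Pol II signal has in them was not tested.

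The same pair of marks at 0 h gave the setting before stimulation. The Pol II list of 0 h stops early on chromosomes 13 to 18, so the 2 times were set side by side on the other 13 autosomes. There 1.84% (1.74 to 1.95) of the 65006 H3K27me3 positions of 4 h overlapped Pol II of 4 h, 0.718 times the uniform level. At 0 h 2.72% (2.57 to 2.88) of 44474 overlapped, 1.06 times that level. The value went with the H3K27me3 list. With Pol II lists exchanged, H3K27me3 of 0 h against Pol II of 4 h gave 1.07 times and H3K27me3 of 4 h against Pol II of 0 h gave 0.712 times. With the 4 h H3K27me3 list cut to its tallest 44474 positions the ratio was 0.871. Overlap rose with H3K27me3 height at 4 h, so leaving out low positions raises this ratio. What part list length and depth have in the difference was not tested. The zones came in the same order at both times. Pairs under 50 bp numbered 388 at 4 h, against 174 for uniform placement, and 356 at 0 h, against 119. The ratios at 250 bp to 1 kb were 0.462 at 4 h and 0.626 at 0 h, and those at 50 to 100 kb were 2.06 and 2.00. The 100 kb bins gave 1.41 at 4 h and 1.46 at 0 h.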

How the data were processed

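ChIP-seq libraries of macrophages fell into groups of 1 by the antibody and time in their labels. Per the file headers, the deposited lists give H3K27me3, Pol II and Jmjd3 as single positions and H3K4me3 as clusters, each with a signal, a whole-number overlap count that the authors gave with no scaling stated. Positions use build mm8, per the submitters' processing notes. Chromatin came from 100000000 cells per library (500000000 for Jmjd3) and fragments of about 200 to 300 bp, per the labels. What aligner, peak caller, threshold and control were used is not given in the sources used here.

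Expected values for uniform placement were computed exactly from covered length over the span of the 8 lists on each chromosome, with no random draws. Bands include their lower and exclude their upper bound. A position was at an H3K4me3 cluster when less than 250 bp from it. A Pol II list of 0 h was taken to stop early where it ended over 1 Mb before both later lists. Named regions were the 5 tallest shared positions by each list, the 5 fullest 10 kb bins and the 5 longest runs; the 5 longest domains joined at 5 kb were added later. The comparison, lists and thresholds were chosen with earlier results of these data known. Alternatives covered the overlap rule, height, list length, merging, expectation and bins. Python 3.11.15, numpy 2.4.6, scipy 1.17.1, pandas 2.3.3 and matplotlib 3.10.9 were used; functions were tested on simulated data, and bedtools 2.31.1 gave the same 1548 overlaps.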

Additional observations from a re-analysis of the deposited data

Results flagged for a closer look

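The overlap of H3K27me3 with Pol II, relative to uniform placement, stood on opposite sides of 1 at the 2 times: 0.718 for the lists of 4 h and 1.06 for those of 0 h, on the 13 autosomes with complete lists. With 1 library per time, the difference was not tested.

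The X chromosome was outside the comparison, and its overlap was far above the autosomal level. In female cells 1 of the 2 X copies is silenced and carries H3K27me3, as background. At 4 h X held 32.1 H3K27me3 positions per Mb, against 34.9 on the autosomes. Pol II was sparser on X, with 6.34 positions per Mb against 23.5, which lowers the uniform level there. Of 5214 H3K27me3 positions of 4 h on X, 321 (6.16%, 5.52 to 6.84) overlapped Pol II of 4 h, against 31.8 for uniform placement, or 10.1 times, where the autosomes gave 0.762 times. Of the 1031 Pol II positions on X, 317 (30.7%, 27.9 to 33.7) overlapped H3K27me3, against 2.7% on autosomes. The 250 bp to 5 kb band, thin on autosomes, held 390 against 166 expected (2.35 times), and 10 kb bins with both numbered 353 against 109 (3.23 times). The 321 positions were spread over 79 bins of 1 Mb, with at most 29 in a single bin, and 259 of them (80.7%, 75.9 to 84.9) were at H3K4me3 of 4 h, against 7.40% of the other X positions. Up to the last Pol II position of 0 h, the ratio was 17.3 for the 0 h lists (235 overlaps) and 9.98 for the 4 h lists (285 overlaps). The cause was not tested.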

How the results depend on the processing

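Values are ratios of observed to expected. The overlap ratio (0.762) crossed 1 above the median heights (1.295) and within 250 bp (1.04, interval 0.984 to 1.11). It was 0.930 in lists of equal length, 0.890 with positions under 1 kb apart merged, 0.665 within 1 kb, 0.585 for placement within 100 kb and 0.674 without positions at all 8 lists. Added after seeing the data, it was 0.572 without the 10 kb bins with 3 or more of each and 0.711 without the first 1 Mb. The median distance ratio (0.453) crossed 1 for placement within 100 kb (1.12), where the expectation keeps the local density. It was 0.400 above the median heights, 0.426 in lists of equal length and 0.458 when merged. The 10 kb ratio (0.861) crossed 1 above the median heights (1.04, interval 0.977 to 1.10). It was 0.952 in lists of equal length, 0.567 with at least 2 positions of each and 0.525 in stretches with any listed position. Added later, it was 0.754 for placement within each 100 kb bin and 0.816 without the fullest bins. The 100 kb ratio (1.42) crossed 1 in bins with any listed position (0.853), by construction. It was 1.47 above the median heights, 1.45 in lists of equal length and 1.45 with at least 2 positions of each. Without the first 100 kb of chromosome 11, added later, the share of Pol II inside long domains at Jmjd3 went from 20.2% to 8.13%, and at H3K4me3 from 42.5% to 32.8%, which passes below the 35.8% of all Pol II. The cause of the crossings above the median heights and within 250 bp was not tested. No paired analysis was possible because each group has 1 library. Unknown depth limits how far low positions can be compared between lists.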

Other observations

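With all heights pooled, 70.9% to 76.1% of H3K27me3 positions of 0 h were listed again at 4 h in each state of Pol II. This was on the 13 complete autosomes, where 72.1% of all 44474 were. Median heights at 0 h were 12 without Pol II at either time and 15 to 16 in the other states. Of those with no Pol II at either time 72.0% (71.6 to 72.4) were listed at 4 h. The shares were 75.03% (72.0 to 77.9) of 837 with Pol II at both times, 76.1% (71.6 to 80.3) of 394 with Pol II at 4 h only and 70.9% (66.0 to 75.4) of 374 with Pol II at 0 h only. Among the lowest positions, of heights 9 to 10, 36.1% (29.3 to 43.4) of 191 with Pol II at both times were listed again. Without Pol II at either time it was 55.9% (55.2 to 56.7) of 16399. With Pol II at 4 h only it was 53.1% (42.7 to 63.2) of 98, and at 0 h only 40.7% (30.5 to 51.5) of 91. At heights of 18 and over the shares were 95.9% (93.3 to 97.7) with Pol II at both times and 90.3% (89.7 to 90.9) without it. They were 92.2% (87.1 to 95.8) with it at 4 h only and 90.3% (84.4 to 94.4) at 0 h only.

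Pol II positions of 4 h that were already listed at 0 h overlapped H3K27me3 of 4 h at 3.11% (2.90 to 3.33) of 24862, and those not listed at 0 h at 2.08% (1.89 to 2.29) of 19455. Their heights differed, with medians of 28 and 15, and the order turned in the taller classes, on small counts. At heights 19 to 37 the shares were 4.10% (3.65 to 4.58) for the former and 2.20% (1.81 to 2.64) for the latter. At 85 to 209 they were 1.76% (1.35 to 2.24) and 4.05% (2.17 to 6.83, 13 of 321), with intervals that overlap. How many of these 13 lay at the chromosome 11 locus was not counted. At 210 to 401 the shares were 1.96% (0.850 to 3.83) of 408 and 28.9% (16.4 to 44.3) of 45, all 13 of the latter at that locus.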
